A study of Mus musculus with 12 samples.

Results

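The expression of 10 genes that mark astrocytes or their reactivity was examined in the cerebral cortex of MRL/lpr, Fn14ko and MRL/+ mice. These were Gfap, Vim, Lcn2, Aldh1l1, Glul, S100b, Slc1a2, Slc1a3, Aqp4 and Gja1. They were taken by name, as every non-control probe that the array files assign to 1 of these genes, and no level or difference entered that rule. The 10 genes had 16 probes on 25 spots. All 25 spots passed the filters on damaged and dim spots, so the 10 genes were among the 17302 quantified, of 29608 gene names on the array.

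MRL/lpr mice are lupus-prone and carry the lpr loss-of-function mutation of the death receptor gene Fas on the MRL background. Fn14ko mice carry the same mutation, were brought to this background by backcrossing, and lack Tnfrsf12a, the gene of Fn14, which is the receptor of the cytokine TWEAK. MRL/+ mice (strain MRL/MpJ) have the background with neither change. All were adult females killed in diestrus. The MRL/lpr and Fn14ko mice were littermates from 1 breeder and the MRL/+ mice were bought elsewhere, so source and genotype cannot be told apart for MRL/+. Each group had 4 mice, and the cortex of each mouse was 1 sample. RNA of 2 mice of the same group, labelled in Cy3 and Cy5, was hybridised to each of 6 two-colour arrays of 60-base probes. The 2 arrays of a group shared a slide, and hence slide and group cannot be told apart either. The comparisons ask what distinguishes the lupus-prone cortex from the MRL/+ cortex, and which of those differences depend on Fn14.

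Astrocytes are the glia that clear glutamate and potassium from synapses, feed neurons and sheathe blood vessels with their endfeet. In injury and inflammation they become reactive, a state classically read from more of the intermediate filaments GFAP and vimentin and, in inflammatory settings, from secreted proteins such as lipocalin-2. The mouse cortex is a tissue in which most resting astrocytes carry little GFAP, so homeostatic genes such as Aldh1l1 and Slc1a2 are used beside it.

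A level here is the background-corrected fluorescence of a gene divided by that of the median spot of the same mouse, so that 1.00 would be the median spot. Levels serve to compare mice for 1 gene and not to compare genes, since probes differ in brightness. In whole cortex, fewer astrocytes and less RNA per astrocyte cannot be told apart. Group differences are given as log2 fold changes with their standard error (SE) from limma, with p-values adjusted over all genes and a threshold of 0.05. The exact permutation p of a single gene over the 70 divisions of 8 mice cannot go below 0.0286.

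The 2 MRL/+ mice read in Cy5, replicates 2 and 4, stood apart. Only 35.0% and 21.2% of their spots were called well above background by the scanner software, versus 56.6% to 70.03% in the other 10 mice. The lowest level called well above background was 0.752 and 1.47 in these mice and 0.0701 to 0.346 in the others. Control spots meant to stay dark had a median of 6.12 and 6.31 times the local background in these mice, versus 1.13 to 2.65 elsewhere. Only 15 and 9 of their spots were under 2 times the local background, versus 8465 to 14724 in the others. The filter on dim spots therefore hardly acted in these mice, and passing it does not show signal there. Of the 16 probes of the astrocyte genes, 4 were not well above background in MRL/+ replicate 2, 9 in MRL/+ replicate 4, 1 in MRL/lpr replicate 2 and 0 in the other mice. Results versus MRL/+ are therefore also given without these 2 mice where it matters. The gene removed in Fn14ko, Tnfrsf12a, had levels of 0.739, 0.777, 0.604 and 0.655 in Fn14ko, 1.86, 1.57, 1.90 and 1.38 in MRL/lpr, and 1.02, 1.18, 0.943 and 1.28 in MRL/+. Every Fn14ko mouse was below every mouse of the other groups, as the labels require, although a signal remained. Tnfrsf12a passed the threshold in MRL/lpr versus Fn14ko but not in Fn14ko versus MRL/+. Its probe was well above background in 3 of 4 MRL/+ mice and in all mice of the other groups. Where this probe lies relative to the deletion is not given in the sources used here. Fas, mutated in both lupus-prone groups, ranged from 0.164 to 0.284 in MRL/lpr, 0.171 to 0.331 in Fn14ko and 0.186 to 0.647 in MRL/+. Fas was well above background in 3 of 4, 4 of 4 and 2 of 4 mice of these groups, so its levels rest partly on readings not above background.

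None of the 10 genes passed the threshold at gene level in any comparison. The median log2 fold change of the 10 was -0.10 in MRL/lpr versus MRL/+, 0.31 in Fn14ko versus MRL/+ and -0.10 in MRL/lpr versus Fn14ko, beside -0.10, -0.10 and -0.07 over all genes. In MRL/lpr versus MRL/+, 0 of 10 passed where 14.4% of all genes did, and 2 of 10, Aldh1l1 and S100b, had an unadjusted p under 0.05 where 34.7% did. In Fn14ko versus MRL/+, 0 of 10 passed (0.954% of all genes) and 0 of 10 had an unadjusted p under 0.05 (21.9%). In MRL/lpr versus Fn14ko, 0 of 10 passed (4.57%) and 2 of 10, Gfap and Lcn2, had an unadjusted p under 0.05 (18.6%). The unequal-variance test of the methods, adjusted, likewise passed 0 of 10 in each comparison, and unadjusted it passed 1 in each, Slc1a2, Aqp4 and Gfap in that order. In the methods this test was used unadjusted, with a fold cutoff for each gene that was not applied here. Among the 10 genes, the largest differences in size were those of Gfap and Lcn2, which were lowest in MRL/lpr and highest in Fn14ko. A single Gfap probe, assigned to transcript variant 1, did pass the threshold, while the gene as a whole did not.

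**Figure D1:**
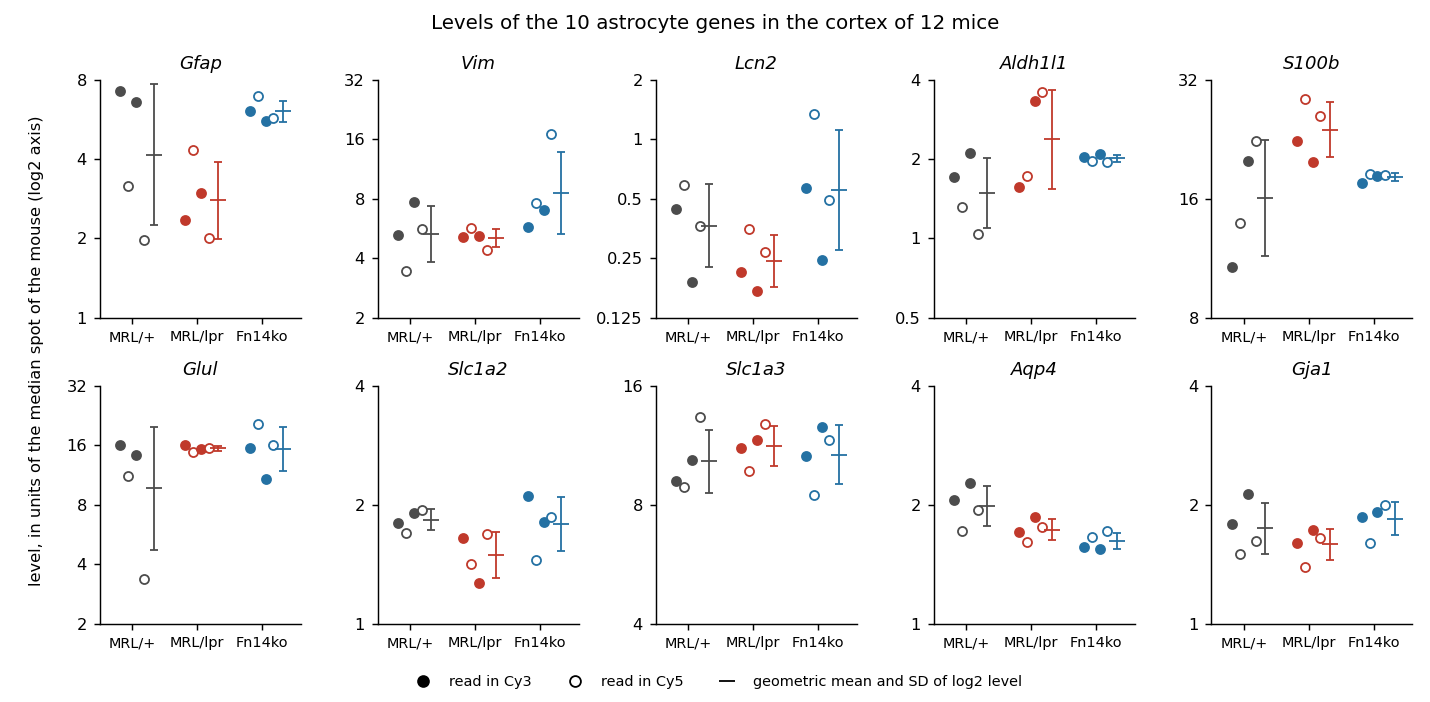
Level of each of the 10 astrocyte genes in each mouse, on log2 axes, relative to the median spot of each mouse, for MRL/+, MRL/lpr and Fn14ko (filled points, Cy3; open points, Cy5; horizontal mark and bar, geometric mean and SD of the log2 level, n = 4). The 4 Fn14ko mice sit between 5.60 and 6.93 for Gfap, above the MRL/lpr mice at 2.00 to 4.32, while the MRL/+ mice spread from 1.98 to 7.23.

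Gfap encodes the main intermediate filament of astrocytes. Its level was 2.34, 4.32, 2.97 and 2.00 in MRL/lpr, 6.09, 6.93, 5.60 and 5.73 in Fn14ko, and 7.23, 3.16, 6.56 and 1.98 in MRL/+. The MRL/lpr and Fn14ko mice did not overlap, and the MRL/+ mice fell into a high pair read in Cy3 and a low pair read in Cy5. The geometric mean of Gfap was 2.18 times higher in Fn14ko than in MRL/lpr, a log2 fold change of -1.12 with SE 0.45 and a 95% interval from -2.10 to -0.14. The adjusted p was 0.201, with an unadjusted p of 0.0276 and an exact permutation p of 0.0286. Of all genes, 20.3% did not overlap between these groups, and of the astrocyte genes 3 of 10 did not, Gfap, Vim and S100b. Against MRL/+, the log2 fold change of Gfap was -0.58 (SE 0.45, adjusted p = 0.362) in MRL/lpr and 0.55 (SE 0.45, adjusted p = 0.432) in Fn14ko. When the Cy3 mice alone were used, 2 a group, Gfap fell by 1.39 on the log2 scale in MRL/lpr versus MRL/+ (adjusted p = 0.00264) and by 1.15 versus Fn14ko (adjusted p = 0.0165), while Fn14ko versus MRL/+ was -0.24. With only the 2 Cy5 mice of MRL/+ left out, Gfap was -1.37 in MRL/lpr versus MRL/+ (adjusted p = 0.0590) and did not pass, and without MRL/+ replicate 4 alone it was -0.95 (adjusted p = 0.308). The spread of Gfap also differed in size, with a coefficient of variation of 9.81% in Fn14ko, 35.1% in MRL/lpr and 54.1% in MRL/+; no test of that difference was made.

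Gfap had 3 probes, all on the minus strand of chromosome 11 (mm9), and the array files assign them to 2 transcript variants. Which form of the GFAP protein each variant encodes was not checked here, so the result of 1 probe is not that of Gfap as a whole. The upstream probe of transcript variant 1 lies at chr11:102752726-102752785 and is shown because it carries the 1 result of the astrocyte genes that passed the threshold. Its sequence as deposited, 5′ to 3′, has 2 of 3 reading frames without a stop:
Gfap variant 1, upstream probe: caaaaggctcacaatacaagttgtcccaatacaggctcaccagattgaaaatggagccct

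The second probe of variant 1 lies downstream at chr11:102751813-102751872, and its distance from the first is the same in the transcript and in the genome. The probe of variant 2 lies further downstream at chr11:102748864-102748923. Both have a stop in all 3 frames.

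With the upstream probe of variant 1, Gfap was 0.367, 0.502, 0.475 and 0.493 in MRL/lpr, 1.08, 1.05, 0.817 and 1.15 in MRL/+, and 1.21, 0.904, 0.922 and 0.978 in Fn14ko. All 4 MRL/lpr mice were below all 8 other mice, and the other groups overlapped. This Gfap probe was 2.23-fold lower in MRL/lpr than in MRL/+ (log2 fold change -1.16, SE 0.21, limma adjusted p = 0.00356, exact permutation p = 0.0286) and 2.19-fold lower than in Fn14ko (-1.13, SE 0.21, limma adjusted p = 0.00804, exact permutation p = 0.0286). Between Fn14ko and MRL/+ it differed by -0.03 (95% interval -0.47 to 0.41). Of all probes, 15% passed the threshold in the first of these comparisons (9.3% as lower) and 4.03% in the second (1.76% as lower), and of the 16 astrocyte probes this 1 did in each. None of the 16 passed between Fn14ko and MRL/+, where 1.09% of all probes did. Not overlapping between groups were 3, 1 and 5 of the 16 probes in MRL/lpr versus MRL/+, Fn14ko versus MRL/+ and MRL/lpr versus Fn14ko, where 24.8%, 14% and 19.5% of all probes did not. Both differences passed with any single mouse left out, the first at -1.27 to -1.06 and the second at -1.24 to -0.99. With dim spots kept in the fit neither did (adjusted p = 0.288 and 0.252), and by the test of the methods the second did not (adjusted p = 0.0677). In MRL/+ replicate 4 this spot was not well above background, and its level there, 1.15, is below the 1.47 that a spot needed in that mouse.

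The other Gfap probes were more spread. The downstream probe of variant 1 read 3.36, 5.91, 4.43 and 2.61 in MRL/lpr, 8.37, 10.4, 8.53 and 10.9 in Fn14ko, and 8.53, 3.51, 8.02 and 1.59 in MRL/+, the last again not well above background. MRL/lpr and Fn14ko did not overlap here (-1.29, SE 0.56, adjusted p = 0.250, exact permutation p = 0.0286), and MRL/lpr versus MRL/+ was -0.18 (SE 0.56). The Gfap variant 2 probe read 3.30, 6.54, 4.00 and 2.91 in MRL/lpr, 8.68, 9.42, 7.34 and 5.29 in Fn14ko, and 12.08, 4.93, 10.9 and 3.19 in MRL/+. Its differences were -0.92 (SE 0.48, adjusted p = 0.349) in MRL/lpr versus Fn14ko and -0.76 (SE 0.48, adjusted p = 0.252) versus MRL/+, and the groups overlapped. All 3 Gfap probes thus had their MRL/lpr mean below both other means. The difference between probes of a gene in their response was computed for 24 pairs and comparisons over Gfap, Aqp4, Slc1a2 and Aldh1l1. The exact permutation p cannot go below 0.0286, which is too high for a few pairs to pass after adjustment over 24, so that the adjusted values (lowest 0.229) say nothing of whether probes respond alike. The downstream variant 1 probe exceeded the variant 2 probe of Gfap in its response by 0.58 in MRL/lpr versus MRL/+ and by 0.95 in Fn14ko versus MRL/+, both without overlap and at the smallest exact permutation p of 0.0286. The 2 probes of variant 1 differed in MRL/lpr versus MRL/+ by 0.97, with overlap (exact permutation p = 0.229).

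**Figure D2:**
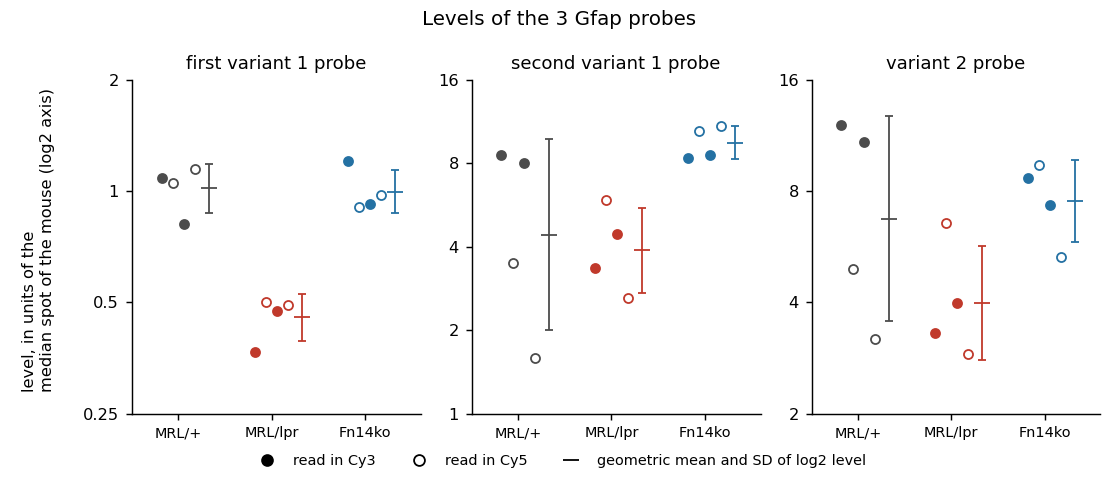
Level of each Gfap probe in each mouse, on log2 axes, relative to the median spot (filled points, Cy3; open points, Cy5; mark and bar, geometric mean and SD of the log2 level, n = 4). With the upstream variant 1 probe the MRL/lpr mice, at 0.367 to 0.502, lie below all other mice, at 0.817 to 1.21, while with the other probes the Cy5 mice of MRL/+ lie below its Cy3 mice.

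Vim encodes vimentin, an intermediate filament that reactive astrocytes assemble together with GFAP and that endothelial cells, fibroblasts and microglia also express. Its level was 5.10, 5.70, 5.18 and 4.40 in MRL/lpr, 5.78, 7.59, 7.02 and 17.1 in Fn14ko, and 5.27, 3.45, 7.69 and 5.64 in MRL/+. Fn14ko replicate 4 was far above the rest, and even the lowest Fn14ko mouse was just above the highest MRL/lpr mouse. The log2 fold change was -0.75 in MRL/lpr versus Fn14ko (SE 0.38, 95% interval -1.58 to 0.08, adjusted p = 0.325, exact permutation p = 0.0286), 0.69 in Fn14ko versus MRL/+ (SE 0.38, adjusted p = 0.286) and -0.06 in MRL/lpr versus MRL/+ (SE 0.38). Without the 2 Cy5 mice of MRL/+ the difference from MRL/+ was 0.22 in Fn14ko and -0.53 in MRL/lpr. The summed level of 6 fibroblast and meningeal markers was 21.4 in Fn14ko replicate 4 and 14.9 in Fn14ko replicate 2, and 4.96 to 8.96 in the other 10 mice. Its part in the Vim levels was not tested.

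Lcn2 encodes lipocalin-2, a secreted iron-siderophore carrier made by reactive astrocytes, neutrophils and choroid plexus. Its level was 0.214, 0.349, 0.171 and 0.267 in MRL/lpr, 0.569, 1.35, 0.245 and 0.490 in Fn14ko, and 0.441, 0.587, 0.188 and 0.363 in MRL/+. The groups overlapped, Fn14ko replicate 2 being highest, and the spot was not well above background in the 2 Cy5 mice of MRL/+. The geometric mean of Lcn2 was 2.28 times higher in Fn14ko than in MRL/lpr (log2 fold change -1.19, SE 0.40, 95% interval -2.06 to -0.32), with an adjusted p of 0.123, an unadjusted p of 0.0113 and an exact permutation p of 0.0857. This difference passed the threshold under 3 of 14 other settings, among them plain background subtraction (-1.42, limma adjusted p = 0.0190). It passed in 0 of 12 fits with 1 mouse left out, and with the Cy3 mice only it was -0.97 (limma adjusted p = 0.557). Against MRL/+ the differences were -0.59 (SE 0.40, adjusted p = 0.292) in MRL/lpr and 0.60 (SE 0.40, adjusted p = 0.350) in Fn14ko. Of 6 neutrophil markers 3 were quantified, and their summed level, most of it Elane, was lowest in Fn14ko, at 1.84 to 3.38 beside 3.504 to 4.88 in MRL/lpr and 3.62 to 5.49 in MRL/+. Elane alone of the 3 had a log2 fold change above 0 in MRL/lpr versus Fn14ko, and the other 2 were below 0. The summed markers of ependyma and choroid plexus ran from 14.1 to 181 in Fn14ko and from 6.98 to 99.2 in MRL/lpr, and their part in the Lcn2 levels was not tested.

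Aldh1l1, a folate enzyme found in nearly all astrocytes, measured 1.56 and 1.72 in the MRL/lpr mice of the first array and 3.32 and 3.60 in those of the second. It was 2.04, 1.96, 2.09 and 1.95 in Fn14ko and 1.71, 1.31, 2.10 and 1.04 in MRL/+. The MRL/lpr mice thus split by array, with the pair on 1 array within the range of MRL/+ and the other pair above all other mice. The log2 fold change of MRL/lpr versus MRL/+ was 0.68 (SE 0.31, 95% interval 0.0051 to 1.35), with an unadjusted p of 0.0485, an adjusted p of 0.141 and an exact permutation p of 0.171. Without the 2 Cy5 mice of MRL/+ it was 0.31 (adjusted p = 0.609), and with the Cy3 mice only 0.26. The value follows the brighter of 2 Aldh1l1 probes, at chr6:90549091-90549150 (mm9, plus strand), which differed by 0.85. The dimmer one, at chr6:90550028-90550087, differed by -0.57 and was not well above background in 2 MRL/+ mice. Fn14ko versus MRL/+ was 0.43 (SE 0.31, adjusted p = 0.373) and MRL/lpr versus Fn14ko 0.24 (SE 0.31, adjusted p = 0.756).

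Glul encodes glutamine synthetase, which turns the glutamate that astrocytes take up into glutamine. Its level was 16.0, 14.9, 15.4 and 15.5 in MRL/lpr, 15.5, 20.4, 10.9 and 16.0 in Fn14ko, and 16.1, 11.2, 14.3 and 3.38 in MRL/+. MRL/+ replicate 4 was far below the rest. The difference from MRL/+ was 0.67 (SE 0.48, adjusted p = 0.320) in MRL/lpr and 0.66 (SE 0.48, adjusted p = 0.380) in Fn14ko. Without MRL/+ replicate 4 these were 0.14 and 0.13, and without both Cy5 mice of MRL/+ they turned to -0.09 and -0.10. MRL/lpr and Fn14ko had nearly the same mean (0.01, 95% interval -1.04 to 1.06).

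S100b encodes a calcium-binding protein that astrocytes hold and secrete, and that some oligodendrocytes also carry. Its level was 22.3, 28.5, 19.8 and 25.9 in MRL/lpr, 17.6, 18.4, 18.3 and 18.3 in Fn14ko, and 10.7, 13.9, 19.9 and 22.4 in MRL/+. The Fn14ko mice were nearly equal, with a coefficient of variation of 2.21%, and lay just below all MRL/lpr mice, while the MRL/+ mice of the first array were below those of the second. S100b differed by 0.57 in MRL/lpr versus MRL/+ (SE 0.23, 95% interval 0.08 to 1.07, unadjusted p = 0.0257, adjusted p = 0.0998, exact permutation p = 0.143). MRL/lpr versus Fn14ko was 0.40 (SE 0.23, adjusted p = 0.385, exact permutation p = 0.0286) and Fn14ko versus MRL/+ 0.18 (SE 0.23, adjusted p = 0.617).

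Slc1a2 encodes GLT-1, the main glutamate transporter of forebrain astrocytes. Its level was 1.65, 1.42, 1.27 and 1.68 in MRL/lpr, 2.11, 1.45, 1.81 and 1.86 in Fn14ko, and 1.80, 1.70, 1.91 and 1.94 in MRL/+. MRL/lpr lay just below MRL/+ without overlap, as did 23.9% of all genes in either direction, and the log2 fold change was -0.30 (SE 0.19, 95% interval -0.70 to 0.11, adjusted p = 0.264, exact permutation p = 0.0286). The other comparisons gave -0.26 (SE 0.19, adjusted p = 0.521) for MRL/lpr versus Fn14ko and -0.04 (SE 0.19) for Fn14ko versus MRL/+. Of its 3 probes, that at chr2:102622252-102622311 (mm9, plus strand) read 1.03, 0.635, 0.945 and 0.656 in the MRL/lpr mice, while the Fn14ko mice read 1.67, 1.06, 1.37 and 1.07. These did not overlap and differed by -0.67 (SE 0.18, exact permutation p = 0.0286), with an adjusted p of 0.0504. They passed under 7 of 13 other settings, but not with the Cy3 mice only (limma adjusted p = 0.134). The MRL/+ mice, at 1.40, 0.845, 1.34 and 0.642 with this probe, overlapped with both. The other Slc1a2 probes differed by -0.14 (SE 0.24, adjusted p = 0.839) and -0.33 (SE 0.37, adjusted p = 0.736) in MRL/lpr versus Fn14ko, both with overlap.

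Slc1a3 encodes GLAST, the other glial glutamate transporter. It measured 11.12, 9.73, 11.7 and 12.8 in MRL/lpr, 10.6, 8.47, 12.6 and 11.7 in Fn14ko, and 9.20, 8.85, 10.4 and 13.3 in MRL/+, which overlapped throughout. Its differences over the 3 comparisons were 0.13, 0.06 and 0.07 with SE 0.21 and 95% intervals of -0.33 to 0.59, -0.40 to 0.52 and -0.39 to 0.53. Their sign turned under several other scalings.

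Aqp4 encodes the water channel of astrocyte endfeet. Its level was 1.70, 1.61, 1.86 and 1.76 in MRL/lpr, 1.57, 1.65, 1.55 and 1.72 in Fn14ko, and 2.06, 1.72, 2.27 and 1.94 in MRL/+. The MRL/+ mice were highest, without overlap with Fn14ko, as in 13.5% of all genes. The log2 fold change was -0.29 in Fn14ko versus MRL/+ (SE 0.15, 95% interval -0.62 to 0.03, adjusted p = 0.261, exact permutation p = 0.0286), -0.20 in MRL/lpr versus MRL/+ (SE 0.15, adjusted p = 0.350) and 0.10 in MRL/lpr versus Fn14ko (SE 0.15). Its 2 probes moved apart versus MRL/+. The first Aqp4 probe read 1.96, 1.496, 1.82 and 2.24 in MRL/lpr, 1.56, 1.70, 1.63 and 1.96 in Fn14ko, and 2.58, 2.35, 3.16 and 3.10 in MRL/+. Both lupus-prone groups lay below all MRL/+ mice with this Aqp4 probe, by -0.58 (SE 0.20, adjusted p = 0.0668) and -0.70 (SE 0.20, adjusted p = 0.0976). They passed the threshold under 9 and 8 of 14 other settings, but in only 2 and 0 of 12 fits with 1 mouse left out. Without the 2 Cy5 mice of MRL/+ neither passed (-0.66, limma adjusted p = 0.177, and -0.78, limma adjusted p = 0.421). Neither passed with the Cy3 mice only, and with dim spots kept the differences were 0.020 and 0.022. With the second Aqp4 probe the lupus-prone groups were 0.44 (SE 0.24, adjusted p = 0.190) and 0.40 (SE 0.24, adjusted p = 0.289) above MRL/+, and that spot was not well above background in 1 MRL/+ mouse. The responses of the 2 Aqp4 probes differed by -1.11 in Fn14ko versus MRL/+, without overlap (exact permutation p = 0.0286), and by -1.02 in MRL/lpr versus MRL/+, with overlap (exact permutation p = 0.0571). The 2 comparisons share the MRL/+ mice.

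Gja1 encodes connexin 43, which forms the gap junctions of the astrocyte network, and was read by 10 spots of 1 probe. Its level was 1.60, 1.40, 1.73 and 1.65 in MRL/lpr, 1.87, 1.60, 1.92 and 2.00 in Fn14ko, and 1.78, 1.5001, 2.12 and 1.62 in MRL/+. All groups overlapped, and the differences were -0.13 (SE 0.16) in MRL/lpr versus MRL/+, 0.08 (SE 0.16) in Fn14ko versus MRL/+ and -0.21 (SE 0.16, adjusted p = 0.527) in MRL/lpr versus Fn14ko.

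Put in order by geometric mean, Gfap, Vim, Lcn2 and Gja1 were highest in Fn14ko, then MRL/+, then MRL/lpr. Aldh1l1, Slc1a3, S100b and Glul were highest in MRL/lpr, then Fn14ko, then MRL/+. Aqp4 and Slc1a2 were highest in MRL/+. In no gene did neighbours in these orders differ past the threshold. The ratio of the highest to the lowest geometric mean ran from 1.09 for Slc1a3 to 2.28 for Lcn2. When the 2 Cy5 mice of MRL/+ were left out, the fitted differences put MRL/+ highest for Gfap, Gja1 and Glul. Fn14ko versus MRL/+ was then -0.25 for Gfap and -0.028 for Gja1, and Glul was -0.087 in MRL/lpr and -0.097 in Fn14ko versus MRL/+. The highest group of the other genes stayed the same.

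**Figure D3:**
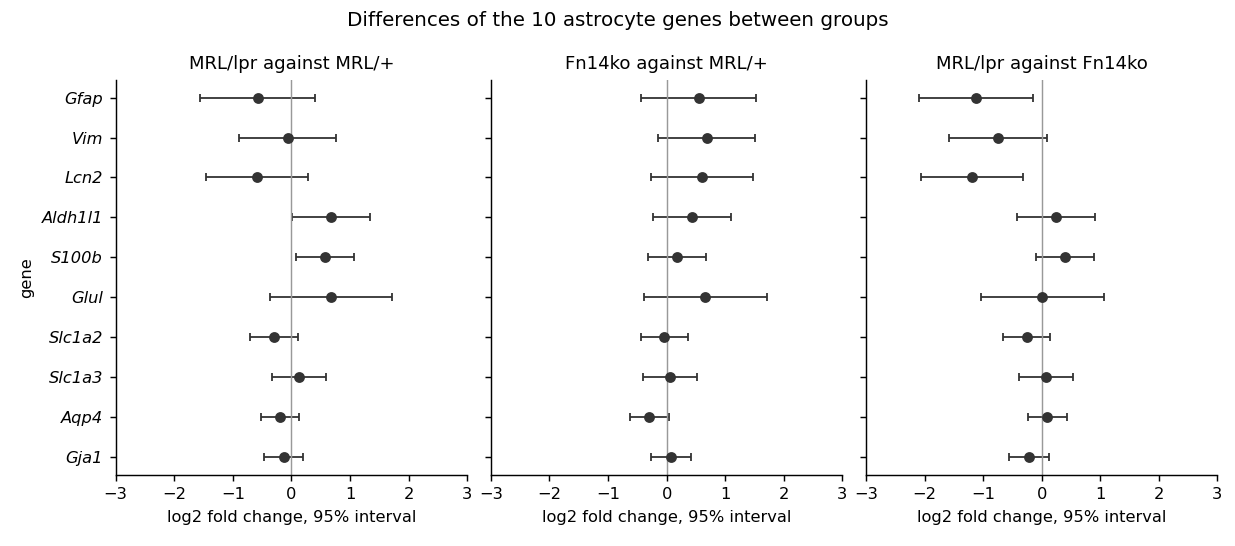
Log2 fold change of each of the 10 astrocyte genes in MRL/lpr versus MRL/+, Fn14ko versus MRL/+ and MRL/lpr versus Fn14ko (points, limma estimate; bars, 95% interval, n = 4 a group). Intervals of Gfap and Lcn2 in MRL/lpr versus Fn14ko lie below 0, from -2.10 to -0.14 and from -2.06 to -0.32, and those of Aldh1l1 and S100b in MRL/lpr versus MRL/+ lie above 0, with no adjusted p under 0.05.

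Other genes of astrocyte biology were taken from lists. Of 42 homeostatic astrocyte genes 41 were quantified, and in MRL/lpr versus MRL/+ 5 passed the threshold as higher and 5 as lower, where 6.03% and 8.37% of all genes did. The median log2 fold change of this list was 0.28, beside -0.10 over all genes. The lowest was Agt, the angiotensinogen gene, which astrocytes express in the brain. Agt measured 0.217, 0.264, 0.382 and 0.330 in MRL/lpr, 1.05, 0.911, 0.672 and 0.920 in Fn14ko, and 1.35, 2.11, 0.932 and 1.56 in MRL/+. Every MRL/lpr mouse was below every other mouse, and Agt was 4.89-fold lower than in MRL/+ (-2.29, SE 0.27, adjusted p = 0.000517) and 3.00-fold lower than in Fn14ko (-1.59, SE 0.27, adjusted p = 0.00532). Next lowest were Slc4a4, a bicarbonate cotransporter (-1.20, SE 0.24, adjusted p = 0.00719), and Hepacam, the adhesion protein GlialCAM (-1.20, SE 0.25, adjusted p = 0.00967). The highest were Dio2, the deiodinase that activates thyroid hormone (1.39, SE 0.42, adjusted p = 0.0430), Plcd4, a phospholipase C (1.17, SE 0.33, adjusted p = 0.0316), and Atp1b2, a sodium pump subunit (0.96, SE 0.26, adjusted p = 0.0294).

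In Fn14ko versus MRL/+, 1 of the 41 homeostatic genes passed as higher and 1 as lower, where 0.237% and 0.717% of all genes did. Gldc, an enzyme of glycine cleavage, measured 4.06, 4.37, 3.83 and 4.66 in Fn14ko, 2.82, 3.22, 3.67 and 2.602 in MRL/lpr, and 2.05, 1.68, 2.03 and 1.64 in MRL/+. It was above MRL/+ in every mouse of both lupus-prone groups, by 1.20 (SE 0.19, adjusted p = 0.0179) in Fn14ko and 0.73 (SE 0.19, adjusted p = 0.0267) in MRL/lpr. Slc6a11, the GABA transporter GAT-3 of astrocytes, read 1.74, 1.53, 1.79 and 1.94 in Fn14ko, 2.22, 1.66, 1.76 and 1.88 in MRL/lpr, and 2.90, 3.22, 4.04 and 3.36 in MRL/+. It differed by -0.94 (SE 0.18, adjusted p = 0.0328) and -0.84 (SE 0.18, adjusted p = 0.00997) in these groups, which were compared with the same MRL/+ mice. In MRL/lpr versus Fn14ko, Agt alone of the 41 passed the threshold, where 2.58% of all genes passed as higher and 1.99% as lower.

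Of 10 genes induced in most reactive astrocytes, 8 were quantified, and Steap4 and Cxcl10 were left out by the filter. Serpina3n, a protease inhibitor and one of the most used markers of reactive astrocytes, was lowest in MRL/lpr by a wide margin. Its level was 1.12, 1.34, 1.22 and 1.11 in MRL/lpr, 7.17, 11.13, 5.12 and 6.10 in Fn14ko, and 9.04, 7.50, 8.41 and 4.67 in MRL/+. All MRL/lpr mice were below all others, and Serpina3n was 6.02-fold lower than in MRL/+ (-2.59, SE 0.31, adjusted p = 0.000517) and 5.92-fold lower than in Fn14ko (-2.56, SE 0.31, adjusted p = 0.000759), while Fn14ko and MRL/+ overlapped. Aspg, an asparaginase, was higher in MRL/lpr than in MRL/+ (0.96, SE 0.22, adjusted p = 0.0143). The other 6, among them Cd44, Timp1, Hspb1 and Osmr, did not pass in any comparison.

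Of 12 genes of the neurotoxic or A1 signature 10 were quantified. In MRL/lpr versus MRL/+ 2 passed as higher and 2 as lower, where 6.03% and 8.37% of all genes did, with a median of 0.15 beside -0.10 over all genes. The higher were Srgn, a proteoglycan of secretory granules (1.23, SE 0.29, adjusted p = 0.0168), and H2-T23, a nonclassical MHC class I gene (1.12, SE 0.33, adjusted p = 0.0401). Srgn was also higher in Fn14ko than in MRL/+ (1.45, SE 0.29, adjusted p = 0.0402). The lower were Amigo2, an adhesion protein, and Fkbp5, a glucocorticoid-induced cochaperone. Amigo2 read 0.166, 0.198, 0.188 and 0.257 in MRL/lpr, 0.440, 0.650, 0.201 and 0.479 in Fn14ko, and 1.15, 1.25, 1.01 and 1.19 in MRL/+, where the spot was well above background in 3 of 4 mice, as it was in MRL/lpr. It was lower than in MRL/+ by -2.53 (SE 0.29, adjusted p = 0.000509) in MRL/lpr and by -1.49 (SE 0.29, adjusted p = 0.0355) in Fn14ko, without overlap in either. Fkbp5 read 2.36, 2.84, 2.49 and 2.08 in MRL/lpr, 5.77, 5.19, 3.36 and 7.30 in Fn14ko, and 4.87, 6.02, 3.94 and 4.52 in MRL/+. It was lower in MRL/lpr than in MRL/+ (-0.98, SE 0.27, adjusted p = 0.0294) and than in Fn14ko (-1.10, SE 0.27, adjusted p = 0.0330). In MRL/lpr versus Fn14ko all 10 A1 genes had a log2 fold change below 0, with a median of -0.75 beside -0.07 over all genes, and Fkbp5 alone passed the threshold. Several of them were high in Fn14ko replicates 2 and 4, which were read in Cy5 and were the mice with the highest fibroblast and meningeal sums. Chosen after their values were seen, Serping1 read 0.651, 1.62, 0.863 and 2.76 in Fn14ko, Psmb8 0.904, 1.81, 0.965 and 2.21, and Gbp2 0.452, 0.843, 0.319 and 1.02. The part of those mice in the A1 median was not tested.

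Of 12 genes of the A2 signature 7 were quantified. S100a10, an annexin partner, was higher in MRL/lpr than in MRL/+ (0.78, SE 0.24, adjusted p = 0.0475), and no other passed in any comparison. Of 25 genes of the cytokine and transcription pathways that drive reactivity 19 were quantified, and the transcripts of Il6, Lif, Tnf and Il1a were among those left out by the filter. Cntfr, the receptor subunit for CNTF, was lower than MRL/+ in MRL/lpr (-0.90, SE 0.23, adjusted p = 0.0211) and in Fn14ko (-1.23, SE 0.23, adjusted p = 0.0300). Stat3, the factor that induces Gfap in reactive astrocytes, measured 2.86, 2.89, 2.66 and 2.62 in MRL/lpr, 3.53, 3.76, 3.16 and 4.22 in Fn14ko, and 3.22, 2.88, 4.57 and 3.31 in MRL/+. MRL/lpr lay below Fn14ko without overlap, by -0.40 (SE 0.20, adjusted p = 0.307, exact permutation p = 0.0286). Of all genes, 20.3% did not overlap between these groups. Stat3 did not pass the threshold and was named after its values were seen.

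Of 25 molecular partners of the 10 genes 22 were quantified, and in MRL/lpr versus MRL/+ 3 were higher and 2 lower, where 6.03% and 8.37% of all genes were, with a median of -0.17 beside -0.10 over all genes. None passed in the other comparisons. Among the filament partners, Nes, which encodes nestin and assembles with vimentin, was higher (1.19, SE 0.22, adjusted p = 0.00427), as was Plec, the filament linker plectin (0.86, SE 0.22, adjusted p = 0.0234), whereas Synm, which encodes synemin, differed by -0.39 (adjusted p = 0.116). Tjp1, the scaffold ZO-1 that binds connexin 43, was higher (0.86, SE 0.23, adjusted p = 0.0258). Aldh1l2, the mitochondrial counterpart of Aldh1l1, was lower (-1.52, SE 0.43, adjusted p = 0.0325) though its groups overlapped (exact permutation p = 0.143).

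**Figure D4:**
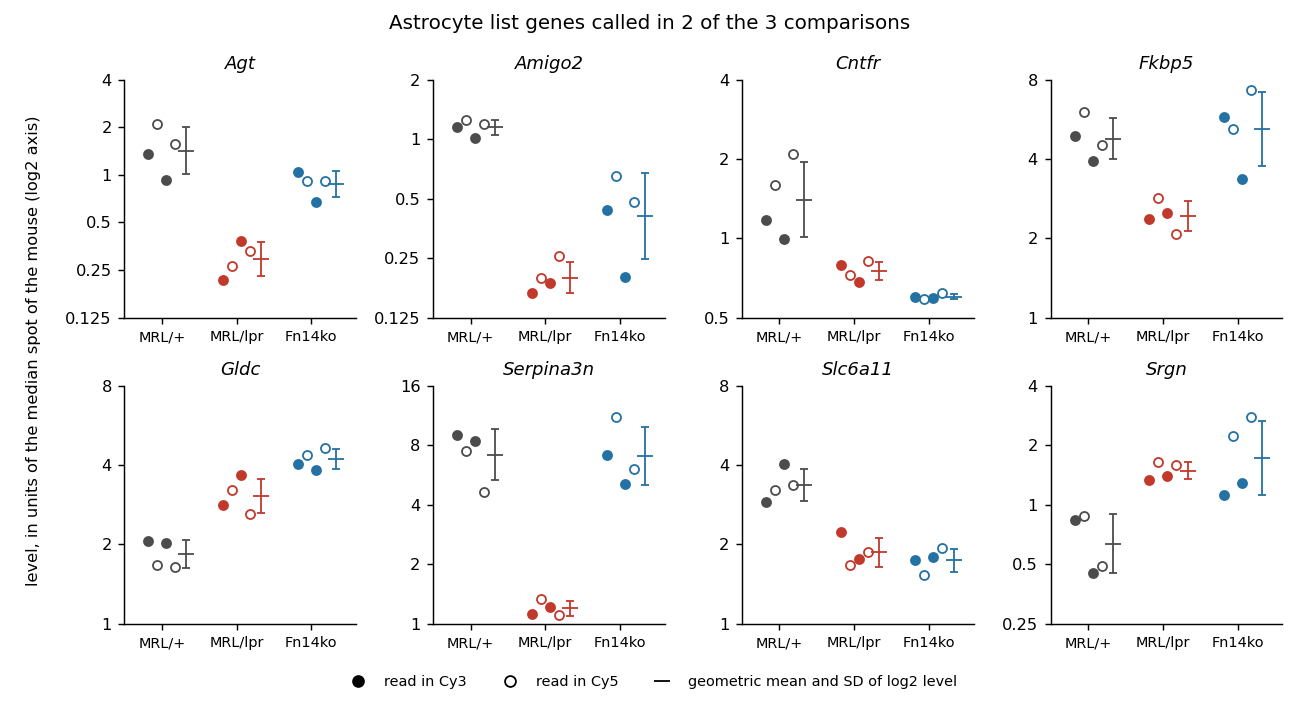
Level of each astrocyte list gene that passed the threshold in 2 of the 3 comparisons, in each mouse, on log2 axes, relative to the median spot (filled points, Cy3; open points, Cy5; mark and bar, geometric mean and SD of the log2 level, n = 4). For Serpina3n the MRL/lpr mice lie at 1.11 to 1.34, below the MRL/+ mice at 4.67 to 9.04 and the Fn14ko mice at 5.12 to 11.13.

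These calls differed in how they held. Of the 104 list genes, 23 passed the threshold in MRL/lpr versus MRL/+. Without the 2 Cy5 mice of MRL/+, 5 passed, of which Agt, Amigo2, Nes and Serpina3n were shared, and without MRL/+ replicate 4 alone the shared ones were these and Slc4a4. The 5 that passed in Fn14ko versus MRL/+ were all lost in both cases. Of the 3 in MRL/lpr versus Fn14ko, Agt and Serpina3n remained and Fkbp5 did not. With dim spots kept none of the calls remained in any comparison. By the unequal-variance test of the methods, adjusted here over all genes and without its fold cutoff, Amigo2, H2-T23 and Srgn remained of the 23. None of the 5 or of the 3 did, so that Serpina3n and Agt were lost in both MRL/lpr comparisons. With limma and 1 mouse left out at a time, Serpina3n and Agt passed in all 12 fits of both. In MRL/+, Nes, Tjp1 and Aspg were well above background in 2 of 4 mice and Agt, Slc4a4, Srgn and Gldc in 3 of 4, so that their differences from MRL/+ rest partly on readings not above background.

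Markers of other cell types moved with the groups too. Of 6 oligodendrocyte markers, all 6 were below 0 in both MRL/lpr comparisons, with medians of -0.69 versus MRL/+ and -0.98 versus Fn14ko, and Mbp (-1.63, adjusted p = 0.0110) passed in the first and Mobp (-1.18, adjusted p = 0.0361) and Cnp (-1.16, adjusted p = 0.0273) in the second. Their summed level was 41.3 to 61.8 in MRL/lpr, 61.7 to 82.4 in Fn14ko and 61.6 to 74.8 in MRL/+. Of 6 ependymal and choroid plexus markers, all 6 were below 0 in both, with medians of -1.65 and -2.17, and Foxj1 (-1.73, adjusted p = 0.00180, and -1.31, adjusted p = 0.0130) and Clic6 (-2.51, adjusted p = 0.0486, and -2.96, adjusted p = 0.0494) passed, the groups of Clic6 overlapping in both. Their summed level, most of it Ttr, varied widely within each group, from 6.98 to 99.2 in MRL/lpr, 14.1 to 181 in Fn14ko and 17.7 to 265 in MRL/+. The summed endothelial level was 15.3 to 18.3 in MRL/lpr, 8.67 to 16.4 in Fn14ko and 9.13 to 12.01 in MRL/+. Of 6 endothelial markers 4 were above and 2 below 0 in MRL/lpr versus MRL/+, with Flt1 higher (1.07, adjusted p = 0.00761). The summed microglial level was 15.7 to 23.7 in MRL/lpr, 14.4 to 16.9 in Fn14ko and 13.2 to 16.3 in MRL/+. Of 6 microglial markers 5 were above and 1 below 0 in MRL/lpr versus MRL/+. Aif1 was higher in MRL/lpr than in MRL/+ (1.17, adjusted p = 0.0271), where it was well above background in 2 of 4 mice. The neuronal sums were 107 to 118 in MRL/lpr, 105 to 127 in Fn14ko and 116 to 163 in MRL/+. Of 6 neuronal markers 3 were above and 3 below 0 in MRL/lpr versus MRL/+, with Slc17a7 lower (-1.08, adjusted p = 0.00926). Elane, a neutrophil protease, was lower in Fn14ko than in MRL/+ (-0.97, adjusted p = 0.0404) and than in MRL/lpr (a difference of 0.96, adjusted p = 0.0144), whereas the other 2 quantified neutrophil markers had log2 fold changes below 0 in MRL/lpr versus Fn14ko. Their part in the levels of Gfap, Serpina3n, Lcn2 and the other astrocyte genes was not tested.

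**Figure D5:**
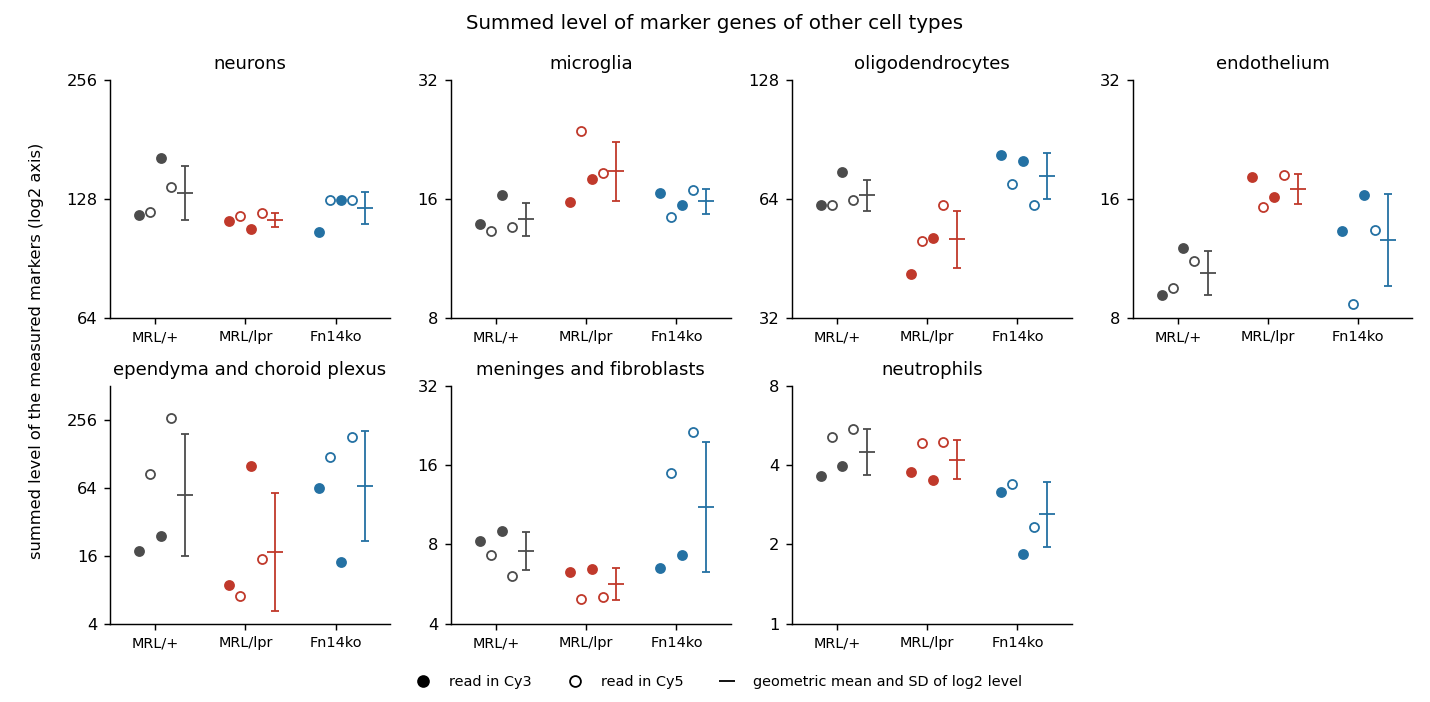
Summed level of the quantified markers of 7 other cell classes in each mouse, on log2 axes, relative to the median spot (filled points, Cy3; open points, Cy5; mark and bar, geometric mean and SD of the log2 sum, n = 4). Oligodendrocyte sums are 41.3 to 61.8 in MRL/lpr and 61.7 to 82.4 in Fn14ko, and the sums of ependyma and choroid plexus range from 6.98 to 265 over the 12 mice.

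Over the 12 mice, the genes whose log2 level followed that of Gfap most closely were Sipa1l3 (Pearson r = 0.949), Prkca (0.945), Abracl (0.933), Pcdh17 (0.931) and B3galt6 (0.930). The points share arrays and the Cy5 channels of MRL/+, in which Gfap was low, and the values are given as a description.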

How the data were processed

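Cortical RNA of 12 mice (4 each of MRL/lpr, Fn14ko and MRL/+) was read on 6 two-colour Agilent arrays. The authors deposited the scanner software's files, which hold the mean and local background intensity of each spot in both channels, not normalized. Intensities were background-corrected by normexp (offset 50). Control spots, spots marked as uneven or as outliers, and spots under 2 times the local background in any mouse were dropped, after the authors' methods, which left 24255 of 43020 non-control spots. Each channel was divided by its median retained spot, and linear levels were averaged over all spots of each gene. The scanner software's processed intensities, deposited beside these, served as an alternative.

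log2 levels were fitted with limma 3.58.1 (R 4.3.3) with a dye term and array as a random block (correlation 0.316), and Benjamini-Hochberg adjustment ran over 17302 genes, or 22419 probes for single probes. Exact permutation tests (NumPy 2.4.6) were two-sided. Mice of 1 group are separate animals, and their number limits the precision. MRL/+ mice enter 2 comparisons.

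The genes, lists and tests were chosen with earlier results of these data known. Named are all 10 genes, up to 3 highest and 3 lowest genes of each list among those past the threshold, molecular partners (1 that passed is not reported here), Tnfrsf12a, Fas, markers that passed, and the 5 genes most like Gfap. Stat3, Serping1, Psmb8, Gbp2, and those pan-reactive and filtered genes named without a value, were named after their values were seen. At gene level 15 alternatives and 12 fits without 1 mouse were run. Single probes, and the alternatives run on them, were added after seeing the data.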

Additional observations from a re-analysis of the deposited data

Results flagged for a closer look

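In 78 groups of 4 mice, the highest and lowest mouse was compared with its nearest neighbour, and a gap whose share of the whole range passed the 95% limit of Dixon's test was marked, which chance alone gives in about 1 of 20 groups. Vim was marked in Fn14ko, where replicate 4 read 17.1 (gap over range 0.839), and S100b was marked in Fn14ko, where replicate 1 read 17.6 as the lowest (gap over range 0.866). Each gene had 1 probe, so that the probe levels were marked alike. The 4 Fn14ko levels of S100b spanned only 17.6 to 18.4.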

How the results depend on the processing

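Of 444 values of the 10 genes under other settings, 372 kept their sign and their side of the threshold, 19 newly passed and 53 changed sign, none of which had passed at first. With 1 mouse left out, 349 of 360 kept both and 11 changed sign. The number of the 10 genes that passed was 2 in MRL/lpr versus MRL/+ with the processed signal (Gfap and Slc1a2), with loess and quantile scaling (Aqp4 and Slc1a2) and with spots well above background in all mice (Aqp4 and Gja1), and 1 with the Cy3 mice only (Gfap). In Fn14ko versus MRL/+ it was 1 with plain background subtraction (Aqp4), 2 with loess (Aqp4 and Lcn2) and 1 with spots well above background (Aqp4). In MRL/lpr versus Fn14ko it was 2 with plain subtraction (Gfap and Lcn2), 1 with the processed signal (Gfap), 1 with the background capped (Lcn2), 1 with the Cy3 mice only (Gfap) and 1 with the replicate block (Lcn2). Of 240 values of the probes described, 32 newly passed, among them those of the first Aqp4 probe versus MRL/+ and of the Slc1a2 probe in MRL/lpr versus Fn14ko. Fitted on single probes, 1 gene (Gfap) passed in each MRL/lpr comparison.

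The following log2 fold changes reversed, and the cause was not tested. With the processed signal, MRL/lpr versus MRL/+ was -0.17 for Slc1a3, -0.64 for Glul and -0.27 for Sparcl1. Fn14ko versus MRL/+ was -0.25 for Gfap, -0.11 for Aldh1l1, -0.092 for Slc1a3, -0.019 for Gja1, -0.085 for S100b, -0.54 for Glul, 0.37 for the upstream Gfap variant 1 probe, -0.67 for the Gfap variant 2 probe and -0.078 for the Slc1a2 probe, and MRL/lpr versus Fn14ko was -0.081 for Slc1a3 and -0.10 for Glul. With loess, MRL/lpr versus MRL/+ was -0.18 for Slc1a3 and 0.16 for Lcn2, Fn14ko versus MRL/+ was -0.20 for Slc1a3, -0.11 for Gja1, -0.039 for S100b and -0.13 for the Gfap variant 2 probe, and MRL/lpr versus Fn14ko was -0.086 for Glul. With spots well above background in all mice, MRL/lpr versus MRL/+ was -0.072 for Slc1a3, and Fn14ko versus MRL/+ was -0.070 for Gfap and for its variant 2 probe, -0.17 for Slc1a3, -0.30 for Gja1 and -0.050 for S100b. With 75th percentile scaling, Slc1a3 was -0.10 in MRL/lpr and, in Fn14ko versus MRL/+, Slc1a3 was -0.19, Gja1 -0.17, S100b -0.072 and the Gfap variant 2 probe -0.092.

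With dim spots kept, MRL/lpr versus MRL/+ was 0.023 for Gfap, 0.54 for Vim, 0.40 for Aqp4, 0.30 for Slc1a2, 0.47 for Gja1, 0.0047 for Lcn2, 0.41 for the downstream Gfap variant 1 probe, 0.020 for the first Aqp4 probe and 0.27 for the Slc1a2 probe. Fn14ko versus MRL/+ was then 0.43 for Aqp4, 0.69 for Slc1a2, 0.70 for the upstream Gfap probe and 0.022 for the first Aqp4 probe, and MRL/lpr versus Fn14ko was -0.030 for Aqp4, -0.054 for Slc1a3, -0.12 for Glul, -0.0019 for the first Aqp4 probe and -0.089 for the second. With plain subtraction Slc1a3 was -0.023 and -0.028 versus MRL/+, and Glul -0.062 versus Fn14ko. With the background capped Slc1a3 was -0.066, -0.047 and -0.019 over the 3 comparisons, Glul -0.086 and the second Aqp4 probe -0.0015 in MRL/lpr versus Fn14ko. With the Cy3 mice only, Fn14ko versus MRL/+ was -0.24 for Gfap, 0.074 for Slc1a2, -0.040 for Gja1, -0.23 for Glul, 0.17 for the upstream Gfap probe and -0.52 for the variant 2 probe, and Slc1a3 was -0.020 in MRL/lpr versus Fn14ko. Without the 2 Cy5 MRL/+ mice, Glul was -0.087 and -0.097 versus MRL/+, and in Fn14ko Gfap was -0.25, Gja1 -0.028, the upstream Gfap probe 0.062 and the variant 2 probe -0.63. By the methods' test the Gfap variant 2 probe was -0.014 in Fn14ko versus MRL/+ and Glul -0.025 in MRL/lpr versus Fn14ko. With 1 mouse left out, values that changed sign ranged from -0.30 to 0.12 for Vim and -0.71 to 0.24 for the downstream Gfap variant 1 probe in MRL/lpr versus MRL/+, from -0.14 to 0.085 for Slc1a2, -0.0098 to 0.18 for Slc1a3, -0.16 to 0.080 for the upstream Gfap probe and -0.20 to 0.45 for the variant 2 probe in Fn14ko versus MRL/+, and from -0.034 to 0.14 for Slc1a3, -0.24 to 0.22 for Glul and -0.085 to 0.16 for the second Aqp4 probe in MRL/lpr versus Fn14ko.

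Over all genes, 2492, 165 and 790 passed in the 3 comparisons. With plain subtraction 5140, 2837 and 2849 did, with dim spots kept 22, 0 and 32, without the 2 Cy5 MRL/+ mice 871, 6 and 538, and with no array block 5189, 1881 and 1782. With the methods' test 721, 2 and 181 did after adjustment, and 4218, 2622 and 3818 had an unadjusted p under 0.05. Scaling also moved the split between higher and lower calls versus MRL/+, from 1044 and 1448 to 708 and 2260 with the 75th percentile in MRL/lpr, and from 41 and 124 to 121 and 891 with the processed signal and 611 and 937 with loess in Fn14ko. Same-numbered mice did not deviate together in every pair (correlations from -0.13 to 0.72, and from -0.28 to 0.48 with the dye effect removed, since number and dye go together), so the numbers were not taken to pair the mice. Between MRL/+ and Fn14ko 3 of 4 pairs were above 0.1 with the dye effect removed. With the replicate block 5597, 1209 and 1624 genes passed. Of 646 values of list genes that had passed, 173 no longer did under other settings, and Sparcl1 alone changed sign.

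The number of arrays, and the low share of spots well above background in the Cy5 mice of MRL/+, limit what can be seen of dim probes.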
